A study of Homo sapiens with 8 samples.

Results

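The genes described here are 5 CEACAM adhesion molecules, CEACAM5 (ENSG00000105388), CEACAM6 (ENSG00000086548), CEACAM7 (ENSG00000007306), CEACAM1 (ENSG00000079385) and CEACAM19 (ENSG00000186567), out of 56632 genes in the table, of which 29419 had a count in any library. They were listed by name and chosen by their levels in these same libraries, among them the difference between M4 and M1, so their levels and differences are given as a description, with no test. All 5 were found. CEACAM1, CEACAM6 and CEACAM19 passed the filter on low counts, CEACAM5 passed it only through M4, and CEACAM7 did not pass it.

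Poly A+ RNA-seq was made from 4 isogenic human mammary epithelial lines, with 2 biological replicates each, grown for 8 days in Matrigel as acinus-like structures in medium with 2% horse serum (the series text gives 8 to 10 days). M1 is MCF10A, a spontaneously immortalized line that forms no tumours. M2 is MCF10AT1k.cl2, which was obtained from MCF10A by transfection of the activated T24-HRAS oncogene and passage as a xenograft. M2 xenografts sometimes formed carcinomas, and these gave the lines M3 (MCF10Ca1h) and M4 (MCF10CA1a.cl1). M4 also colonizes the lung. M1 and M2 had 10 ng/ml EGF in the medium, as the methods were read here, and M3 and M4 had none, so line and EGF cannot be told apart when M3 or M4 is compared with M1, whereas M4 and M3 shared the same medium. Each stage is represented by 1 line, and all 4 carry the changes that immortalized MCF10A.

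CEACAMs are cell surface glycoproteins of the immunoglobulin superfamily that bind their own kind or each other on neighbouring cells. CEACAM5 (carcinoembryonic antigen, a serum tumour marker), CEACAM6 and CEACAM7 are held in the outer leaflet of the membrane by a glycosylphosphatidylinositol (GPI) anchor, while CEACAM1 and CEACAM19 span the membrane. Some isoforms of CEACAM1 carry a cytoplasmic tail that recruits the phosphatases SHP-1 and SHP-2. CEACAM1 is also known in mammary epithelium for its place at the luminal surface and its part in lumen formation. Counts per gene do not tell its isoforms apart.

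Library totals ran from 69669945 counts in M2 replicate 2 to 107350288 in M4 replicate 1. A supplementary table of the study assigns the libraries labelled M1 replicate 2 and M2 replicate 1 the other way round. The labels were used, and the main results that rest on M1 or M2 are also given with the 2 libraries exchanged. Spearman's rho between replicates, across 13495 genes that are not independent of each other, was 0.998 between the M2 libraries and 0.971, 0.977 and 0.986 between those of M1, M3 and M4. All 10 mammary epithelial markers examined reached 1 CPM (the count relative to library size, with TMM scaling factors) in a library, with summed levels of 10590 to 17440 CPM, and HRAS was at 138.7 to 159.8 CPM in M1 and M2 and at 269.3 to 352.4 CPM in M3 and M4. Of the intestinal markers, 1 of 9 reached 1 CPM, CDX1 and FABP1 were at 0 in every library, and the summed level was 0.708 to 1.504 CPM. Of the leukocyte and granulocyte markers, which matter because those cells carry CEACAMs too, 3 of 9 reached 1 CPM, CD3E and FCGR3B were at 0, and the summed level was 19.6 to 29.3 CPM in M1 and 2.49 to 6.25 CPM in the other lines. The fibroblast list summed to 6.43 to 74.3 CPM with COL1A2 at 0, and the endothelial list to 0.243 to 3.21 CPM.

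Promoter windows from RefSeq (assembly GRCh38.p14) were matched for 4 of the 5 genes, from 250 bases before to 50 after the gene start. The 150 bases before the start are shown for these 4 genes.
CEACAM5: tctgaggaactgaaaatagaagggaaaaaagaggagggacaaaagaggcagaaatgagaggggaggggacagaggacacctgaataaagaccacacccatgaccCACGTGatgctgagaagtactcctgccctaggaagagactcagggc
CEACAM6: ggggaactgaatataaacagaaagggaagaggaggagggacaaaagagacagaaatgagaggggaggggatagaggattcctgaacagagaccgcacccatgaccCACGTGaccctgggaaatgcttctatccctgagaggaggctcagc
CEACAM7: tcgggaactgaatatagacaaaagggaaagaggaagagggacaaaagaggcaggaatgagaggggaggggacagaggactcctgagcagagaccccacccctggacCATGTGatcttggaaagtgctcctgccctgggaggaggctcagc
CEACAM1: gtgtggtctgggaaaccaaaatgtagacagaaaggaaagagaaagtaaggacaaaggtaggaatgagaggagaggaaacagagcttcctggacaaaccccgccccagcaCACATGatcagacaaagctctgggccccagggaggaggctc
These stretches are chr19:41708476-41708625 and chr19:41755380-41755529 on the plus strand and chr19:41688271-41688420 and chr19:42528482-42528631 on the minus strand. The capitals mark the 6 bases that align with the E-box CACGTG of CEACAM5, the motif bound by the factors USF1 and USF2, which starts 46 bases before the gene start in CEACAM5 and 45 in CEACAM6. CEACAM7 has CATGTG and CEACAM1 has CACATG in that place. Over the whole windows of 300 bases, CEACAM5 shared 84.7% of aligned bases with CEACAM7, 78.8% with CEACAM6 and 72.0% with CEACAM1. Whether these letters bear on the levels of the genes was not tested.

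The motifs searched were read on both strands in those windows and in all 27305 windows of the promoter table. CACGTG was found in 7.43% of all windows and in those of CEACAM5 and CEACAM6. The GC box GGGCGG, a site of Sp1, was found in 44.6% of all windows and in those of CEACAM6 and CEACAM1. The interferon regulatory factor core motif was found in 3.65% of all windows and, among these genes, in that of CEACAM1. Neither form of the AP-1 site (TGACTCA or TGAGTCA, which are one sequence read on the 2 strands, in 4.92% of windows) nor the cAMP response element TGACGTCA (1.98%) was present in the 4 windows. A match is a run of letters and not a measured site.

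On GRCh37, the build of the counts, with gene models of a GENCODE release lifted to it, the 5 genes lie on chromosome 19. CEACAM7 (42177231 to 42210895, minus strand) and CEACAM5 (42212504 to 42234353, plus strand) are divergent, with annotated spans 1608 bp apart. CEACAM6 follows on the plus strand (42254885 to 42276116). CEACAM1 lies on the minus strand (43011456 to 43065386), and CEACAM19 is 2100158 bp further on (45165545 to 45187631, plus strand). The outer end of a span need not be the RefSeq start used for the promoter windows. On GRCh38.p14 the stretches shown for CEACAM7 (41688271 to 41688420) and CEACAM5 (41708476 to 41708625) lie much further apart than 1608 bp. The canonical transcripts were compared in windows moved 1 base at a time, so shared windows can overlap. CEACAM5 and CEACAM6 share 40 windows of 50 bases and none of 100 with each other, so reads within them could be assigned to either gene. CEACAM1 shares 80 windows of 50 bases and 18 of 100 with CEACAM3. In all, CEACAM5, CEACAM6 and CEACAM1 share 92, 122 and 144 windows of 50 bases with other genes. Of the 40 values of the 5 genes, 13 were not whole numbers. RSEM divides reads that match several genes. Exons of CEACAM19 overlap those of PVR on the same strand, and exons of CEACAM1 those of the antisense gene LIPE-AS1, which had 13 to 69 counts. Exons of CEACAM5 and CEACAM6 overlap those of ENSG00000267881 on the same strand, which had 1 count, in M4 replicate 1. Whether strand was used in counting is not stated, so reads from CEACAM1 and LIPE-AS1 may not be told apart.

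CEACAM5 was read only in the carcinoma lines. It had 0 counts in all 4 libraries of M1 and M2, 12 and 4 counts in M3 replicates 1 and 2, 1930 counts in M4 replicate 1 and 377 in M4 replicate 2. A count of 0 in M1 or M2 allows a level of up to 0.0295 to 0.0427 CPM (3 counts, counting error only). In M4 the level was 17.01 CPM in replicate 1 and 4.83 CPM in replicate 2, against 0.152 and 0.0459 CPM in M3, so the 2 lines did not overlap. Against the level of 3 counts in each M1 library, the mean of M4 was at least 299.7-fold higher, a log2 bound of 8.23, which was 7.05 without M4 replicate 1 and 8.87 without M4 replicate 2, and 8.38 with the 2 libraries exchanged. The mean of M3 was at least 2.71-fold higher than that level, a log2 bound of 1.44 that fell to 0.33 without M3 replicate 1. Between the lines grown without EGF, M4 stood 6.79 above M3 on the log2 scale (standard error 0.943), from 5.61 without M4 replicate 1 to 7.84 without M3 replicate 1. In bulk libraries, more cells with the transcript and more transcript per cell cannot be told apart.

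CEACAM6, a GPI-anchored cell surface antigen like CEACAM5, was read in every library and was lowest in M2. Replicates 1 and 2 of M1 held 64 and 35 counts, those of M2 18 and 15, those of M3 332 and 243, and those of M4 3191 and 910. The levels were 0.774 and 0.427 CPM for M1, 0.177 and 0.213 for M2, 4.19 and 2.79 for M3, and 28.1 and 11.7 for M4. The libraries of the 4 lines fell in the order M2, M1, M3, M4 with no overlap between adjacent lines, but with the 2 libraries exchanged M1 and M2 overlapped. The fitted log2 difference was 5.05 for M4 against M1 (standard error 0.548), 2.51 for M4 against M3 (0.481), 2.54 for M3 against M1 (0.499) and -1.63 for M2 against M1 (0.542). The gap from M3 to M1 and that from M4 to M3 were thus of like size. With the 2 libraries exchanged, M2 against M1 was -0.55 and M4 against M1 was 5.40. Without M4 replicate 1, M4 against M1 was 4.28 and M4 against M3 was 1.74. Without M1 replicate 1 and M1 replicate 2 in turn, M4 against M1 was 5.56 and 4.68.

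CEACAM7, the third GPI-anchored gene and best known from the colon, had 3 counts in M4 replicate 1 and 0 in the other 7 libraries. That is 0.0264 CPM, the level taken here as the floor, and no fold was computed. It lies closest to CEACAM5 on the chromosome and has the promoter window most like it.

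CEACAM1 was the most abundant of the 5 genes per length in both carcinoma lines. M1 held 428 and 2888 counts, M2 452 and 265, M3 6819 and 9320, and M4 12804 and 5063. The levels were 5.17 and 35.2 CPM for M1, 4.44 and 3.77 for M2, 86.1 and 107.0 for M3, and 112.8 and 64.9 for M4. All M3 and M4 libraries lay above all M1 and M2 libraries, and M3 and M4 overlapped. M1 replicate 2 stood apart, 6.78-fold above M1 replicate 1, a gap on the log2 scale as large as that of 2.26% of all genes tested in that line. The mean of M3 was 23.5-fold that of M2, and the mean of M4 21.7-fold, and with the 2 libraries exchanged these were 4.95-fold and 4.56-fold. Against M1 the fitted log2 difference was 2.14 for M4 (standard error 0.751) and 2.26 for M3 (0.754). Without M1 replicate 2 these were 4.10 and 4.23, without M1 replicate 1 they were 1.35 and 1.46, and with the 2 libraries exchanged they were 4.21 and 4.33. M2 stood at -2.30 against M1 (0.768), -0.33 without M1 replicate 2, and at 2.02, the opposite direction, with the 2 libraries exchanged. For M4 against M3 it was -0.12 (0.718), from -0.57 without M4 replicate 1 to 0.24 without M4 replicate 2. The carcinoma lines thus overlapped in CEACAM1 and did not in CEACAM5 or CEACAM6.

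CEACAM19, a membrane-spanning family member whose function is little known, was the only one of the 5 that was highest in M1. M1 held 1188 and 1128 counts, M2 821 and 562, M3 435 and 589, and M4 977 and 554. The levels were 14.4 and 13.8 CPM for M1, 8.06 and 7.99 for M2, 5.50 and 6.76 for M3, and 8.61 and 7.10 for M4. M1 lay above the other lines in both libraries, M2 and M4 overlapped, and M3 lay below all of them. With the exchange M1 overlapped both M2 and M4. The fitted log2 difference from M1 was -0.84 in M4 (standard error 0.210), -1.20 in M3 (0.212) and -0.81 in M2 (0.210), and that of M4 against M3 was 0.36 (0.210). After the exchange of libraries, the differences from M1 were -0.51 in M4, -0.87 in M3 and -0.04 in M2. PVR, the nectin-like receptor whose exons overlap those of CEACAM19, went the other way, with 65.04 and 63.96 CPM for M1 and 134.6 and 148.6 CPM for M4, and its log2 difference was 1.13 (edgeR adjusted p = 0.00181, standard error 0.153). With the exchange it stood at 0.95 and was not called. The part of shared reads in the level of CEACAM19 was not tested.

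**Figure D1:**
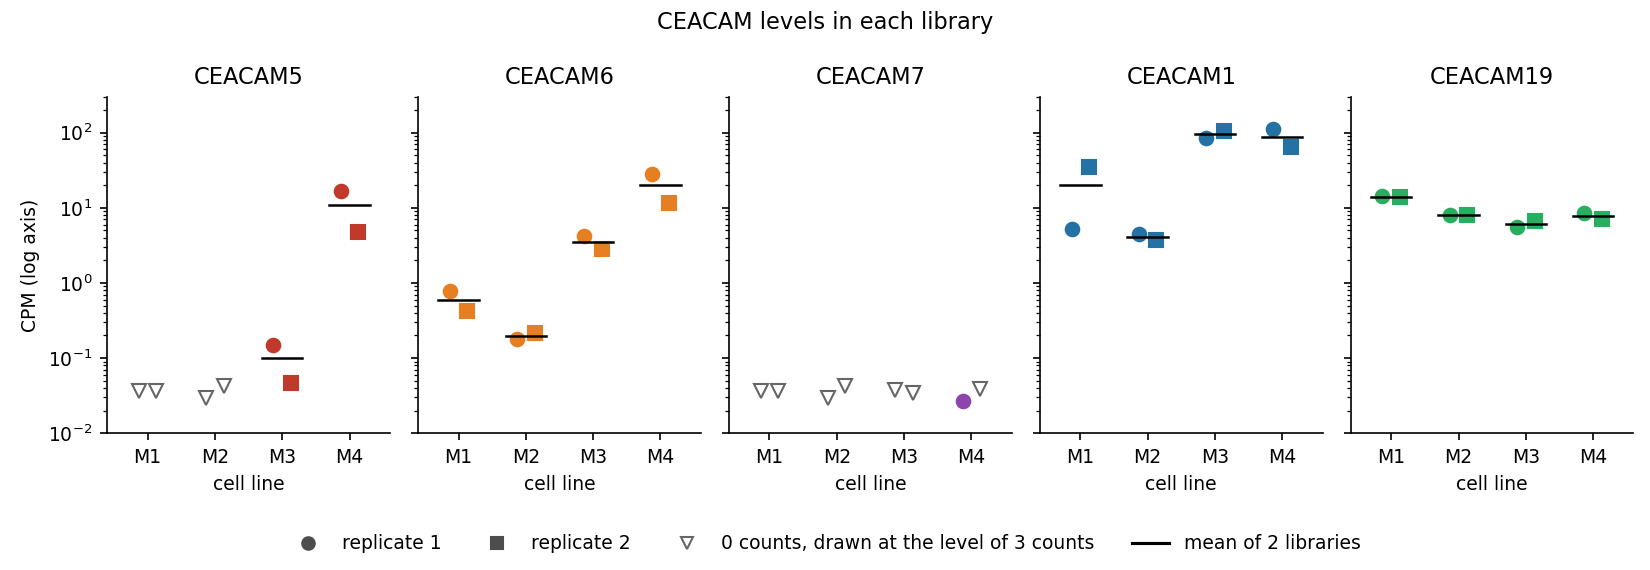
Level of each gene in every library, as CPM on a log axis, by cell line; circles and squares are replicates 1 and 2, horizontal lines are the means of 2 libraries, and open triangles are libraries with 0 counts drawn at the level of 3 counts. CEACAM5 reached 17.01 and 4.83 CPM in M4 and was at 0 in M1 and M2, CEACAM1 was at 64.9 to 112.8 CPM in M3 and M4, and CEACAM19 lay between 5.50 and 14.4 CPM.

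Set per length of exon, the mixture of CEACAM transcripts differed between the lines. Of 23 CEACAM genes and pseudogenes in the table, 10 had a count. CEACAM19 made up 69.3% of the summed CPM per kb for M1 replicate 1 and 28.6% for M1 replicate 2, 60.9% and 63.5% for M2, 5.84% and 6.03% for M3, and 4.6% and 7.41% for M4. CEACAM1 made up 85.6% and 89.3% in M3 and 56.4% and 63.3% in M4. CEACAM6 made up 26.3% and 21.3% in M4, against 7.79% and 4.35% in M3. CEACAM5 made up 11.8% in M4 replicate 1 and 6.54% in M4 replicate 2, and 0.209% and 0.0531% in M3. The summed level was 2.43 to 9.31 CPM per kb in M1 and M2 and 18.2 to 36.2 in M3 and M4. The length is that of all annotated exons, so the level of a gene read mainly as shorter isoforms is understated.

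**Figure D2:**
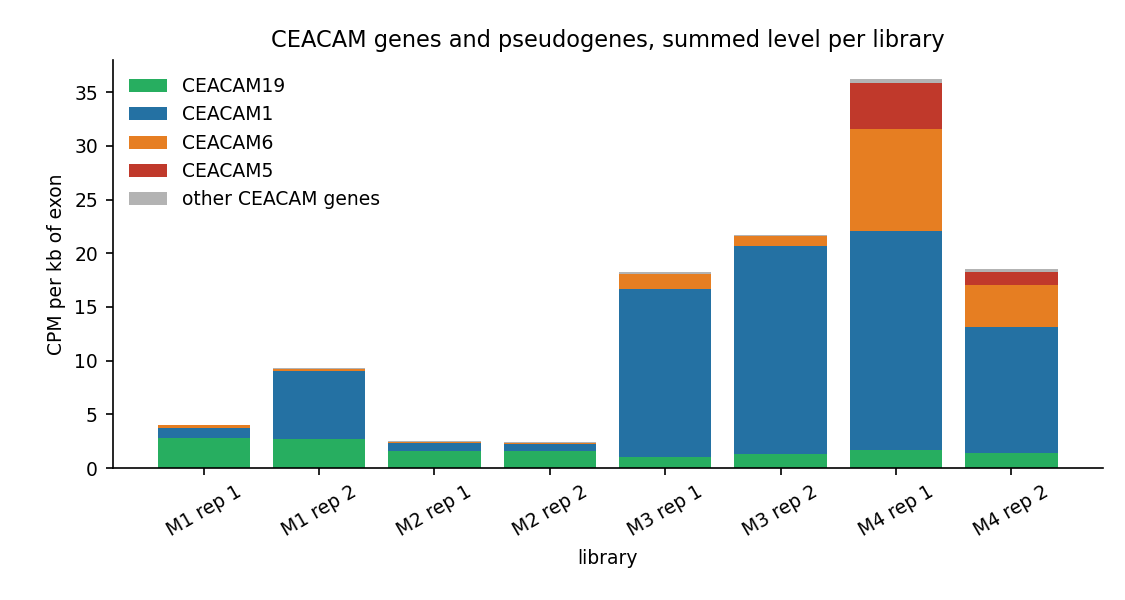
Summed level of the CEACAM genes and pseudogenes in each library, as CPM per kb of exon, stacked by gene. M3 and M4 libraries reach 18.2 to 36.2 CPM per kb and are mostly CEACAM1 (blue), and the CEACAM6 (orange) and CEACAM5 (red) parts are largest in M4 replicate 1.

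The 2 M4 libraries differed in the same direction for the 4 genes that passed the filter on low counts. On the log2 CPM scale (prior count 2), replicate 1 exceeded replicate 2 by 1.81 for CEACAM5, 1.27 for CEACAM6, 0.80 for CEACAM1 and 0.28 for CEACAM19. Replicate 1 was also the deepest library, and CPM takes that depth into account: the ratio of counts of CEACAM5 was 5.12 and that of CPM 3.51. Over all 18431 genes tested the median gap was 0.0048 and the median absolute gap 0.276. An excess of replicate 1 as large as that of CEACAM5 was seen in 2.73% of genes, of CEACAM6 in 6.07%, of CEACAM1 in 12.4% and of CEACAM19 in 28.5%. In M3 the gap between replicates 1 and 2 was 1.34 for CEACAM5, from 12 and 4 counts, and 0.58 for CEACAM6, and it was -0.31 for CEACAM1 and -0.30 for CEACAM19.

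**Figure D3:**
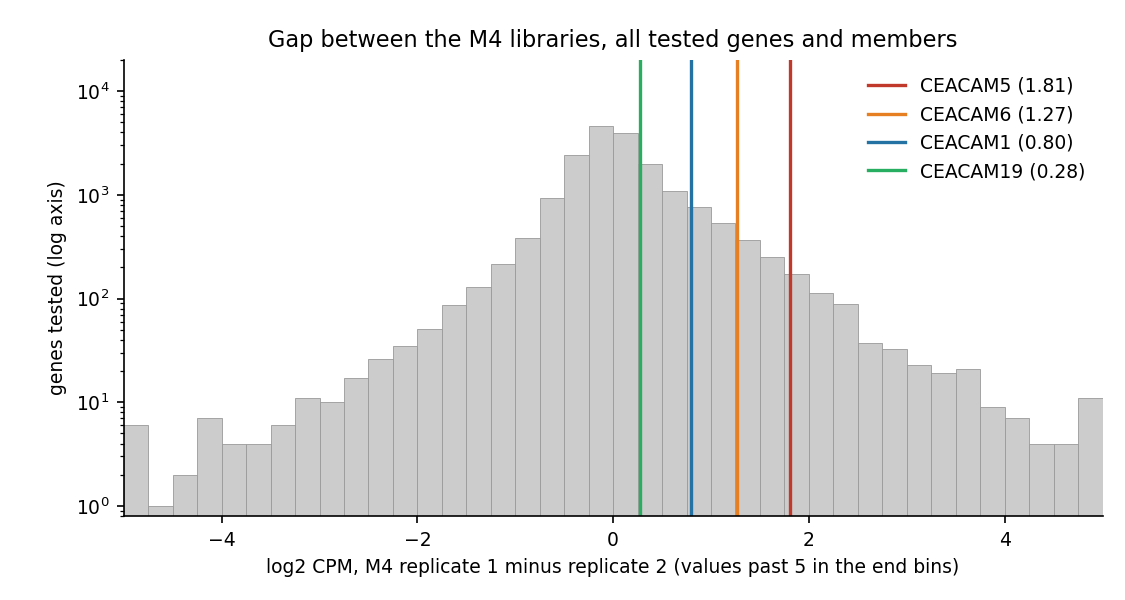
Number of genes (log axis) by the difference in log2 CPM between M4 replicate 1 and M4 replicate 2, for the 18431 genes tested; coloured lines mark 4 CEACAM genes. CEACAM5 lies at 1.81 and CEACAM6 at 1.27, in the right shoulder, and CEACAM19 at 0.28 lies within the bulk of the genes.

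Over the 8 libraries, log2 CPM of CEACAM5 and CEACAM6 had a Pearson correlation of 0.923 and that of CEACAM6 and CEACAM1 of 0.831, while CEACAM19 stood at -0.34 to -0.42 with the other 3. These are descriptions over libraries that share 4 lines, and no p was computed. Among 14309 well-measured genes, the 3 most like CEACAM5 were SPINK1 (r = 0.995), a secreted trypsin inhibitor, EHD1 (0.994), which acts in endocytic recycling, and ATF3 (0.992), a stress-induced transcription factor. SPINK1 held 4 to 6 counts for M1 and M2, 20 and 9 for M3, and 2093 and 419 for M4, so it shared with CEACAM5 both the place of its highest level and the gap between the M4 libraries. The closest to CEACAM6 were LIPH (0.988), a phospholipase, TFG (0.987), which acts in export from the endoplasmic reticulum, and TMCC3 (0.984). The closest to CEACAM1 were PCDHB9 (0.979), a protocadherin, RFNG (0.977), which glycosylates Notch receptors, and CD163L1 (0.977), and to CEACAM19 the lncRNA ENSG00000268575 (0.989), ATP6AP1 (0.988), an accessory subunit of the proton pump, and PLEKHH3 (0.984). The points share their lines, libraries and depth.

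Of 18 other CEACAM and pregnancy-specific glycoprotein (PSG) genes listed, 17 were in the table, 14 had a count and 4 passed the filter on low counts. PSG9, CEACAM21 and CEACAM22P passed it only through M4, so their levels are given with no test. PSG4, a placental PSG, held 27 and 14 counts for M1, 7 and 6 for M2, 23 and 1 for M3, and 329 and 48 for M4. Its log2 difference from M1 was 2.82, which was not called (standard error 1.13, adjusted p = 0.0943 from edgeR), and M4 replicate 1 was its highest library, as for CEACAM5. PSG9 held 20 and 9 counts for M4, 1 for M2 replicate 1 and 0 for the other libraries, which put the mean of M4 at least 4.002-fold above the level of 3 counts in M1. CEACAM21 had at most 14 counts, CEACAM22P at most 22 and PSG6 at most 13.

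Of 27 tested genes for proteins that CEACAMs bind or signal through, 3 were called higher and none lower in M4 against M1, on RNA counts. A call needed an adjusted p under 0.05 from edgeR's quasi-likelihood test and an absolute log2 difference above 1, and 20.7% of all 18431 genes were called in that comparison (9.48% higher and 11.2% lower), so the share of partners called, 11.1%, was below that of all genes. With 2 libraries a line, these p-values measure only the spread between replicate libraries, estimated from all 8 libraries together. The median absolute gap between replicates in log2 CPM was 0.0956 in M2, against 0.329, 0.376 and 0.276 in M1, M3 and M4. The shared spread thus rests in part on lines not compared, the close M2 pair among them, and may be too small for the others. Exchanging libraries of M1 and M2 therefore also moved p for M4 against M3, although no M3 or M4 library was exchanged. The partners' median log2 difference was 0.30, against -0.02 over all genes. The 3 were ITGA5 (1.89, standard error 0.140, adjusted p = 0.000222 from edgeR) and ITGB1 (1.15, 0.172, 0.0027), which form the fibronectin receptor, and ANXA2 (1.15, 0.204, 0.00528), a membrane-binding annexin. ITGA5 was at 55.1 and 49.4 CPM for M1, 103.5 and 99.7 for M2, and 189.5 and 197.1 for M4. With the 2 libraries exchanged ITGA5, ITGB1 and ANXA2 were not called (adjusted p of 0.0784, 0.237 and 0.302 from edgeR), with ITGA5 at 1.29. ANXA2 was not called without M4 replicate 1 (log2 difference 0.99). In M3 against M1, where 13.5% of all genes were called, 7 of the 27 were called higher and none lower. With the 2 libraries exchanged edgeR called 0 of the 27, and only 219 of all 18431 genes. In M4 against M3, where 10.3% of all genes were called (3.99% higher and 6.3% lower), 2 of 27 were called. INSR, the insulin receptor, was called higher (1.35, standard error 0.384, adjusted p = 0.0497 from edgeR) and SHC1, an adaptor of receptor tyrosine kinases, lower (-1.48, 0.194, 0.00457). The call of INSR was lost under 6 of 12 alternatives, leaving out M3 replicate 1, M4 replicate 1 or M4 replicate 2 among them, and without M3 replicate 2 it stood at 2.11. PTPN6, which encodes SHP-1, was at 25.7 and 22.2 CPM for M1 and 18.9 and 16.5 for M4 and was not called in M4 against M1 or M3.

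Genes that make or trim the GPI anchor, which CEACAM5, CEACAM6 and CEACAM7 need to stay on the surface, had a median log2 difference of -0.04 between M4 and M1. Of 28 tested, 1 was called higher and 2 lower (10.7%, against 20.7% of all genes). PIGA, of the first step of anchor synthesis, stood at 1.34 (standard error 0.194, adjusted p = 0.00235 from edgeR). PIGZ, a mannosyltransferase, stood at -2.60 (0.382, 0.00252) and PGAP3, which remodels the lipid of the anchor, at -1.60 (0.248, 0.00312). With the 2 libraries exchanged PIGA and PGAP3 were not called (adjusted p of 0.116 and 0.157 from edgeR), at 0.88 and -1.002. In M4 against M3, 2 of 28 were called lower and none higher (7.14%, against 10.3% of all genes), PIGZ (-1.86, standard error 0.375, adjusted p = 0.0169 from edgeR) and DPM3 (-1.07, 0.241, 0.0237), a subunit of the enzyme that supplies dolichol-bound mannose. Neither was called with the 2 libraries exchanged or without M4 replicate 1 or M4 replicate 2, and DPM3 also not without M3 replicate 1.

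Of 19 tested transcription factors linked to CEACAM promoters, 2 were called higher and 1 lower in M4 against M1 (15.8%, against 20.7% of all genes), with a median of -0.07. SMAD3, a mediator of TGF-beta signalling, stood at 1.55 (standard error 0.184, adjusted p = 0.00112 from edgeR) and KLF4 at 1.18 (0.219, 0.00634), and TFAP2C at -1.44 (0.320, 0.0129). In M4 against M3, 3 were called higher and 1 lower (21.1%, against 10.3% of all genes): KLF4 (1.63, standard error 0.222, adjusted p = 0.00532 from edgeR), the interferon regulatory factor IRF1 (1.58, 0.242, 0.00761), SMAD3 (1.00, 0.182, 0.0121) and TFAP2C (-1.39, 0.320, 0.026). With the 2 libraries exchanged KLF4 was not called against M1 (adjusted p = 0.119 from edgeR) and TFAP2C in neither comparison. Without M4 replicate 1, KLF4 was not called against M1, nor TFAP2C in either comparison, nor IRF1 or SMAD3 against M3. Without M4 replicate 2 TFAP2C was called in neither and SMAD3 not against M3. Without M1 replicate 1 TFAP2C was not called against M1, and without M3 replicate 2 SMAD3 and TFAP2C were not called against M3, with TFAP2C at -0.76. USF1 and USF2, which bind the E-box shown in capitals, were at 24.1 to 41.5 and 65.03 to 127.4 CPM over the 8 libraries and were not called in these 2 comparisons.

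Other surface antigens and secretory genes of mucosal epithelia were called in both directions. In M4 against M1, 7 of 22 were called higher and 6 lower (59.1%, against 20.7% of all genes), and in M4 against M3, 7 higher and 2 lower (40.9%, against 10.3%). This list too was chosen with results of these libraries known. MUC4 (53 and 23 counts for M4, at most 5 in any other library) and CLDN3 (21 and 12 for M4, at most 10) passed the filter on low counts only through M4. Both are among the 22 tested, so the shares of 59.1% and 40.9% include them, and any call of either carries no weight. LCN2, a secreted protein that binds siderophores, held 77 and 17 counts for M1, 462 and 807 for M3, and 12105 and 846 for M4, and stood at 6.69 against M1 (standard error 1.22, adjusted p = 0.00701 from edgeR). MUC16, the mucin that carries an ovarian tumour antigen, held 44 and 45 counts for M1, 22 and 2 for M3, and 1918 and 379 for M4, and stood at 4.33 against M1 (0.935, 0.0119) and 6.19 against M3 (1.05, 0.0101). Without M4 replicate 1, LCN2 stood at 4.25 against M1, and it stood at 8.16 without the first M1 library, 5.98 without the other and 7.57 without M4 replicate 2. M4 replicate 1 was the higher library for LCN2 and MUC16, but only 2 of the 22 genes had a gap above 1 (9.09%, against 9.17% of all genes), and PSCA was higher in replicate 2. Without M4 replicate 1 MUC16 stood at 3.17 and 5.02 and was called in neither comparison, and without M4 replicate 2 it stood at 4.99 and 6.85. Against M3 it stood at 8.80 without M3 replicate 1 and 5.28 without M3 replicate 2. The tight junction gene CLDN4 stood at 2.76 in both comparisons (0.229, adjusted p of 0.000298 and 0.00124 from edgeR). PSCA, a GPI-anchored antigen, stood at 4.38 against M3 (1.11, 0.0375), at 53.2 and 68.3 CPM for M4 and 5.3 and 0.551 CPM for M3. M1 replicates 1 and 2 were at 172.2 and 31.15 CPM, so both M4 libraries lay between those of M1. PSCA lost its call against M3 without M3 replicate 2 (3.51), M4 replicate 1 or M4 replicate 2, and it stood at 6.78 without M3 replicate 1.

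Not every mucosal antigen was higher in M4. WFDC2, a secreted protease inhibitor, held 5094 and 16991 counts for M1, 2904 and 171 for M3, and 4 and 2 for M4, and stood at -12.0 against M1 (standard error 1.92, adjusted p = 0.00418 from edgeR) and -9.21 against M3 (1.85, 0.0188), the latter not called without M4 replicate 1 or M4 replicate 2. WFDC2 stood at -5.92 against M3 without M3 replicate 1 and -10.1 without M3 replicate 2, and against M1 it ranged from -12.6 to -10.7 when an M1 library was left out or the 2 libraries were exchanged. MUC1, a transmembrane mucin, was called lower in M4 against M3 (-2.11, standard error 0.333, adjusted p = 0.00804 from edgeR). Its levels were 56.5 and 32.2 CPM for M1, 74.7 and 74.0 for M2, 6.35 and 5.80 for M3, and 1.78 and 0.999 for M4. M3 thus also lay far below M1 and M2. MSLN, a GPI-anchored antigen, held 9782 counts for M1 replicate 1 and 17 for replicate 2, so that its difference of -7.53 from M1 (2.24, 0.0399) turned to 0.63 without M1 replicate 1 and was -8.53 without M1 replicate 2, and it was also not called without either M4 library, with the replicate block or with only 2 lines fitted. LY6D, another GPI-anchored antigen, stood at -5.03 (1.14, 0.0156) from 3435 and 279 counts for M1. Leaving out M1 replicate 1 gave -2.29 and leaving out the other M1 library -5.92, and it was not called without either M4 library or with only 2 lines fitted. With the 2 libraries exchanged MUC16 (5.35 against M1), MSLN, LY6D and PSCA were not called, and LCN2, CLDN4, WFDC2 and MUC1 were.

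**Figure D4:**
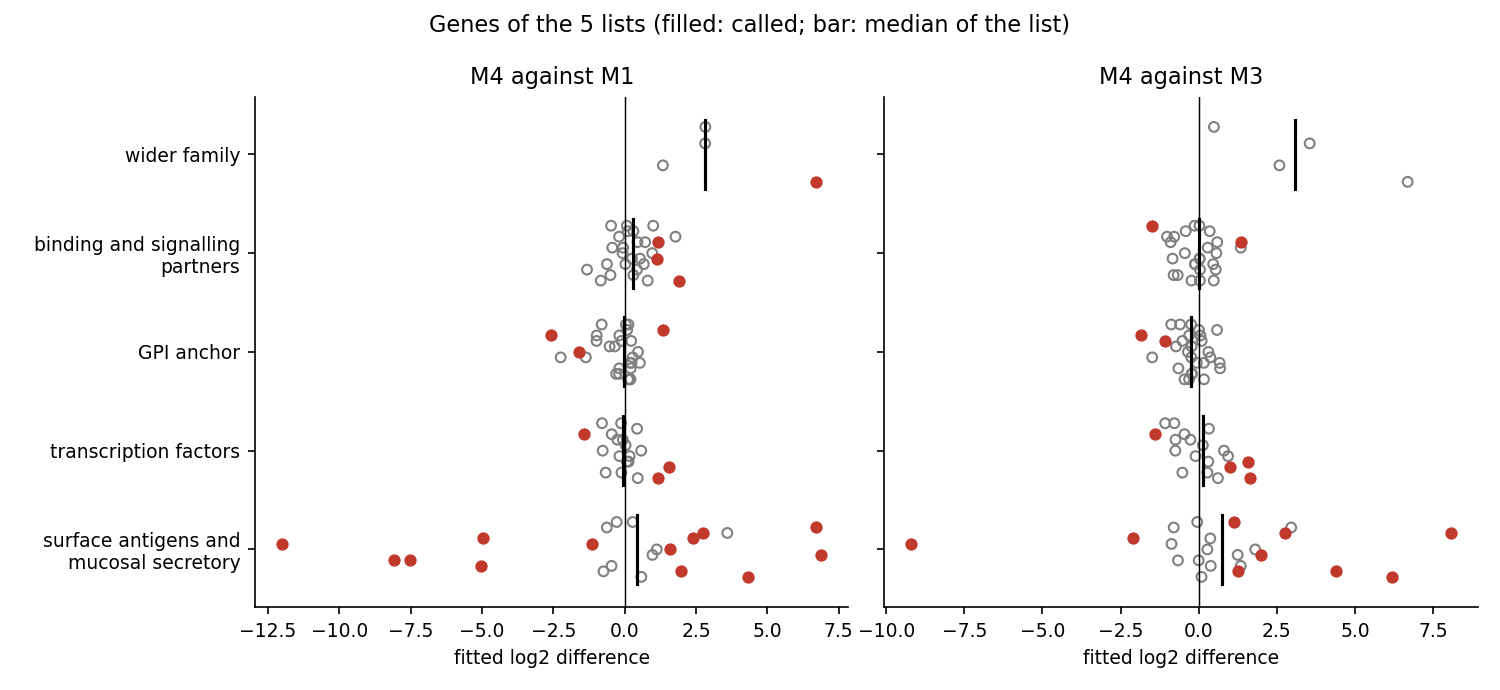
Fitted log2 difference of each tested gene of the 5 lists, for M4 against M1 (left) and M4 against M3 (right); filled points passed the test, open points did not, and vertical bars are list medians. Partners, GPI anchor genes and transcription factors sit mostly near 0, and the surface antigens spread widely, from WFDC2 at -12.0 to LCN2 at 6.69 and beyond against M1. PSG9, CEACAM21, CEACAM22P, MUC4 and CLDN3 passed the filter on low counts only through M4. The fitted values of PSG9 and CLDN3 against libraries at 0 depend on the prior count.

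The neighbours of the 5 genes on the chromosome mostly had differences below 0 between M4 and the other lines. Of 67 protein-coding genes within 500 kb of a member, other than CEACAM and PSG genes, 56 were tested. In M4 against M1, 4 were called higher and 19 lower (41.1%, against 20.7% of all genes), of which POU2F2 passed the filter only through M4. Their median log2 difference was -0.81, and 45 of 56 (80.4%) lay below 0. The other 936 tested protein-coding genes of chromosome 19 had a median of -0.35, with 67 called higher and 178 lower, and the 13089 of other chromosomes a median of 0.04, with 1395 and 1478. In M4 against M3, 4 neighbours were called higher and 9 lower (23.2%, against 10.3%), with a median of -0.54, against -0.12 for the rest of chromosome 19. In M2 against M1, where 3.37% of all genes were called, 1 neighbour was called, with a median of -0.17. With the 2 libraries exchanged edgeR called 0 neighbours and 0 of all 18431 genes, and the median of the neighbours was 0.02. The median was below 0 around both groups of genes, -0.79 against M1 around CEACAM5, CEACAM6, CEACAM7 and CEACAM1 and -0.88 around CEACAM19. CEACAM5, CEACAM6 and CEACAM1 thus stood above that median, while CEACAM19, at -0.84, was close to the median of its own neighbours.

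Of the 4 neighbours called higher in M4 against M1, 3 lie between CEACAM6 and CEACAM1, and the other is PVR. CXCL17, a mucosal chemokine gene whose end is 64358 bp from CEACAM1, held 49 and 34 counts for M1, 5 and 1 for M2, 9 and 6 for M3, and 500 and 77 for M4. It stood at 2.42 against M1 (standard error 0.743, adjusted p = 0.0408 from edgeR) and 4.87 against M3 (0.861, 0.0112). POU2F2, which encodes the transcription factor OCT2, had 3 to 15 counts for the other lines and 111 and 30 for M4, a log2 difference of 3.21 from M1 and 3.97 from M3. It passed the filter on low counts only through M4, so no test is given. LIPE, hormone-sensitive lipase, stood at 1.27 (0.285, 0.0133) and 1.81 (0.289, 0.00852). CXCL17 and POU2F2 were higher in M4 replicate 1. Without that library CXCL17 stood at 0.98 against M1 and 3.42 against M3, neither CXCL17 nor LIPE was called in either comparison, and POU2F2 stood at 2.38 and 3.14. Without M4 replicate 2 CXCL17 stood at 3.15 and 5.60. CXCL17 was also not called against M1 without M1 replicate 1 or M1 replicate 2, nor against M3 without M3 replicate 1 or M3 replicate 2, and LIPE not against M1 without M1 replicate 2.

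Among neighbours with at least 100 counts in a library of the higher line, the largest lower differences called against M1 were those of APOC1, an apolipoprotein, at -7.56 (standard error 0.872, adjusted p = 0.000952 from edgeR), NKPD1 at -5.55 (0.8799, 0.0034) and B3GNT8, a glycosyltransferase, at -5.42 (0.664, 0.00126). These 3 were called under all 12 alternatives, with sizes that moved. NKPD1 stood at -3.75 without M1 replicate 1 and -6.32 without M1 replicate 2. APOC1 stood at -6.70 without M1 replicate 2, -6.91 without M4 replicate 1, -8.37 without M4 replicate 2 and -6.57 after the exchange, and B3GNT8 at -4.81 without M1 replicate 2, -6.47 without M4 replicate 1 and -4.44 after the exchange. Against M3 they were those of APOC1 (-6.13, standard error 0.844, adjusted p = 0.00553 from edgeR), APOE (-3.53, 0.776, 0.0224) and AXL, a receptor tyrosine kinase (-1.96, 0.365, 0.0137), none of which was called without M4 replicate 1. APOC1 then stood at -5.48, and at -5.25 without M3 replicate 1 and -6.93 without M4 replicate 2. APOE was also not called without M3 replicate 1 or M4 replicate 2, nor AXL without M3 replicate 2. After the exchange of libraries, 1 neighbour (LIPE) was called higher and 13 lower in M4 against M1, where 1559 of all 18431 genes were called, and the median was -0.76. APOE and CXCL17 were then not called against M3, nor CXCL17 against M1, where it stood at 3.08.

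**Figure D5:**
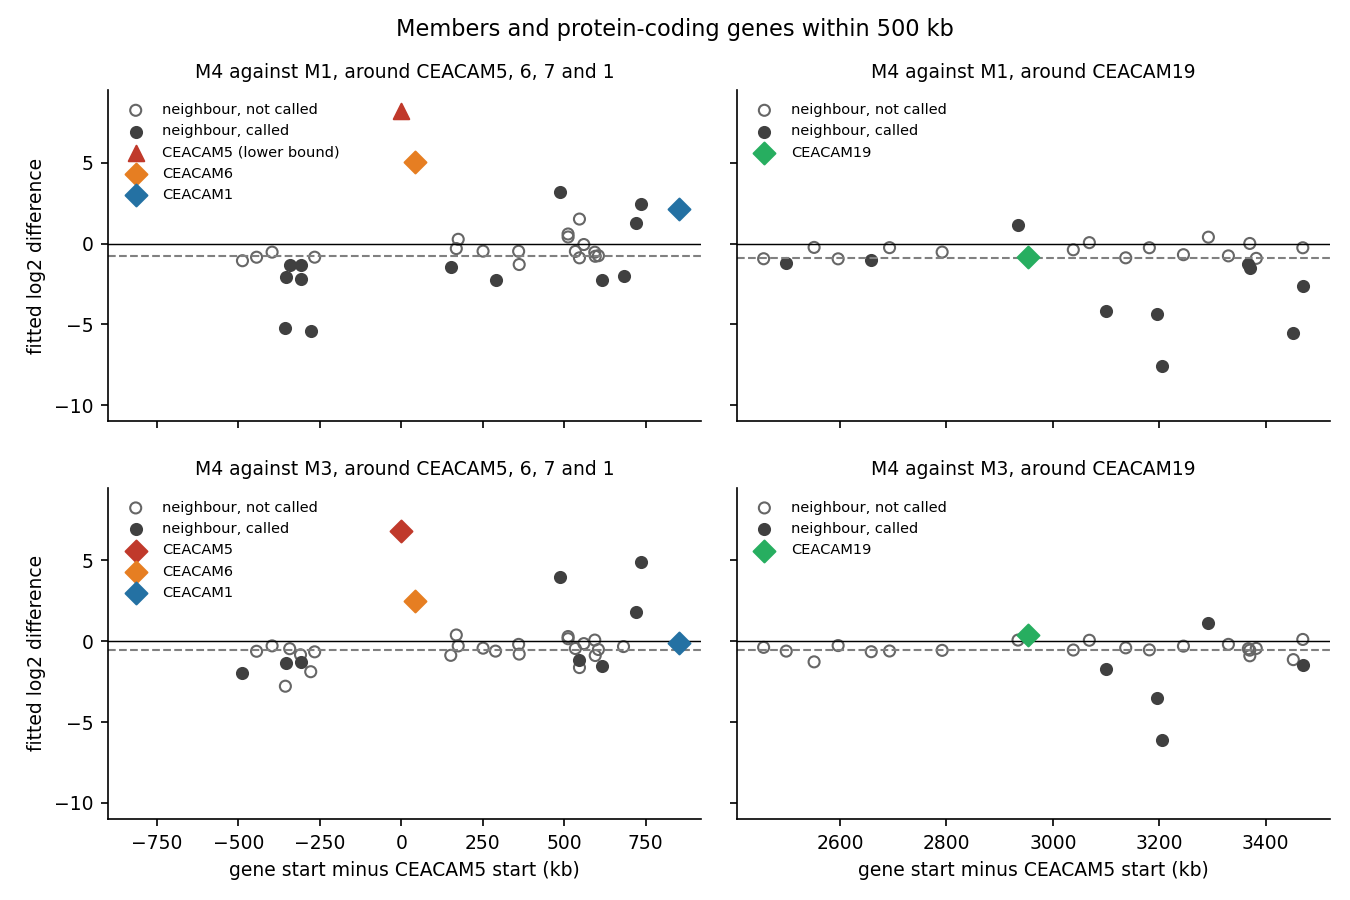
Fitted log2 difference against the distance of each gene's start from that of CEACAM5 (kb), for M4 against M1 (top) or M3 (bottom), around CEACAM5, CEACAM6, CEACAM7 and CEACAM1 (left) and around CEACAM19 (right); filled circles were called, open circles were not, dashed lines are the medians of the neighbours, and the triangle is a lower bound. CEACAM5 and CEACAM6 lie above all neighbours against M1, at a bound of 8.23 and at 5.05, and CEACAM19 lies at -0.84 beside a median of -0.88.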

How the data were processed

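Poly A+ paired-end RNA-seq libraries of 4 cell lines in 3D culture were analysed. The authors trimmed reads with Trimmomatic, aligned them to hg19 (GRCh37) with STAR and deposited expected counts per gene from RSEM on GENCODE gene models. The versions are not given in the sources used here. RSEM divides reads that match several genes by estimation, and 32.3% of the values above 0 were not whole. They were rounded.

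Groups and replicate numbers came from the sample titles, and 0 columns stayed without a sample. Counts were scaled by TMM and tested in R 4.3.3 with edgeR 4.0.16 (filterByExpr, robust quasi-likelihood F test, all 8 libraries, Benjamini-Hochberg adjustment over 18431 genes). DESeq2 1.42.0 was an alternative. A call needed an adjusted p under 0.05 and an absolute log2 difference above 1. Tables and figures used Python 3.11.15 with pandas 2.3.3, biopython 1.88 and matplotlib 3.10.9. Gene positions are on GRCh37 and promoter windows on GRCh38.p14, and the builds were not mixed. A floor of 3 counts stood for 0 and covers counting error only. Correlations of replicate deviations between lines ran from -0.02 to 0.12, the highest for M3 and M4, and replicate numbers were not taken to pair the libraries. Such correlations cannot exclude that libraries of one replicate number were prepared together.

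The 5 genes and all lists were chosen with earlier results of these data known. The genes named were the 5, family members with at least 10 counts in a library, and in each list and among the neighbours up to 3 called genes of largest difference in each direction for M4 against M1 and M4 against M3, with at least 100 counts in a library of the higher line. Likeness was the Pearson correlation of log2 CPM over 8 libraries, with the 3 closest genes named. PTPN6, PVR, USF1 and USF2 were added after their values were seen. Alternatives changed the scaling, filter, tool, fitted lines, replicate block, library assignment and each replicate in turn.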

Additional observations from a re-analysis of the deposited data

How the results depend on the processing

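Of 182 recomputed values of the CEACAM genes, 172 moved by less than the spread between replicates and 1 reversed, and of 142 recomputed list counts, 96 stayed within 1.5 times. For differences between lines, that spread came from the replicate gaps of the same gene, so leaving out 1 replicate could seldom exceed it. CEACAM1 for M4 against M1 thus counted as unmoved at 4.10 without M1 replicate 2, against 2.14 with all libraries. With M1 replicate 2 and M2 replicate 1 exchanged, the log2 difference of CEACAM1 was 4.21 for M4 against M1 and 2.02, a reversal from -2.30, for M2 against M1, and CEACAM19 stood at -0.51 for M4 against M1. Genes called for M4 against M1 then numbered 0 in the wider family, 0 among partners, 1 among GPI anchor genes, 1 among transcription factors, 7 among surface antigens and 14 among neighbours, and for M4 against M3 1 partner, 0 GPI anchor genes, 3 surface antigens and 6 neighbours. Over all genes the exchange left 1559, 830, 219 and 0 calls for M4 against M1, M4 against M3, M3 against M1 and M2 against M1, where the labelled assignment gave 3821, 1897, 2494 and 622, and DESeq2 called 1278 for M2 against M1. The cause was not tested.

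In the wider family, 3 of the 4 tested genes passed the filter only through M4, so its counts carry no weight; by labels and edgeR it had 1 call for M4 against M1 and 0 for M4 against M3, with 3 at an unadjusted p under 0.05. With no filter on low counts, M4 against M1 had 2 calls in the wider family, 6 among partners and 5 among GPI anchor genes, and M4 against M3 had 1 in the family. Scaling by total counts, which moved the median of all genes for M4 against M3 from -0.02 to 0.10, gave 5 partners for M4 against M1 and 1 partner and 1 GPI anchor gene for M4 against M3. DESeq2 called 1 family gene for M4 against M3. With only the 2 lines compared in the fit, the family had 0 calls for M4 against M1 and 1 for M4 against M3, and there were 1 partner and 1 GPI anchor gene for M4 against M3. The share of all genes called is not given for the fits without a filter, with total counts or with only 2 lines. Their counts are therefore no results about the lists.

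The shared replicate numbers were not taken to pair the libraries in the main fit. In the fit with the replicate block, the family had 0 calls for M4 against M1 and 1 for M4 against M3, all genes had 3628 and 1756, and CEACAM6 stood at 4.997 and CEACAM1 at 2.36 for M4 against M1.

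Leaving out each library in turn, the calls for M4 against M1 ranged from 0 to 0 in the family, 3 to 6 among partners, 1 to 3 among transcription factors and 7 to 13 among surface antigens. For M4 against M3 they ranged from 0 to 1 in the family, 1 to 5 among partners, 0 to 2 among GPI anchor genes, 1 to 4 among transcription factors, 2 to 7 among surface antigens and 2 to 10 among neighbours. For M4 against M3 the lowest counts for transcription factors, surface antigens and neighbours came without M4 replicate 1, where the other M4 library was taken to vary like the other lines. The share of all genes called is not given for the fits with a library left out. These ranges are therefore no results about the lists. CEACAM1 ranged from 1.35 without M1 replicate 1 to 4.10 without M1 replicate 2 for M4 against M1. Depth limits CEACAM5 in M1 and M2 and CEACAM7 throughout.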
